A study of Mus musculus with 4 samples.

Results

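The natriuretic peptide system was followed through 6 genes of the 55405 features in the count matrices, found by symbol: the peptide genes Nppa, Nppb and Nppc and the receptor genes Npr1, Npr2 and Npr3. All 6 symbols stood in the matrices on a single row each, with gene identifiers equal to those of GENCODE M21. Nppa and Nppb encode the precursors of atrial and B-type natriuretic peptide, which heart muscle cells secrete and which, in the embryo, mark the working myocardium, Nppa above all in the trabeculae. Nppc encodes C-type natriuretic peptide, which acts locally and is known mainly from endothelium, cartilage and brain. Npr1 (the receptor of the atrial and B-type peptides) and Npr2 (the receptor of the C-type peptide) are membrane guanylyl cyclases that make cGMP. Npr3 binds all of these peptides, lacks the cyclase domain and removes them by internalisation.

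The cells came from dissociated ventricles of mouse embryos collected at E12.5 (the embryonic day) after tamoxifen at E9.5. The 2 Gata4_KO libraries (KO 1 and KO 2) carried Gata4fl/fl and the 2 Gata4_het libraries (het 1 and het 2) carried Gata4fl/+. Every group also carried Rosa26mTmG/+, a reporter that turns from red to green in cells with active Cre, and Cdh5(Pac)-CreER+, a Cre driven from an endothelial promoter, so the controls carried 1 floxed Gata4 allele exposed to the same Cre. How many embryos went into a library is not given in the labels, so p-values measure the spread between these libraries only. After filtering, 13522 cells in KO 1, 6785 in KO 2, 22474 in het 1 and 9938 in het 2 remained.

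Het 1 stood apart from the other libraries. Its lowest barcode held 1841 unique molecular identifiers (UMIs, each standing for a captured RNA molecule), against 500 to 521 in the others, and 58.2% of its cells fell into clusters that could not be named, against 5.81% in KO 1, 2.73% in KO 2 and 3.33% in het 2. Of the unnamed clusters, 4 (led by Lyve1, Mrc1 and Fcer1g), 11 (Upk3b, Apela and Krt18) and 15 (Calcrl, Emcn and Entpd1) gave 2855, 1653 and 1157 cells of het 1. Cardiomyocyte markers averaged 2.80%, 1.57% and 1.24% of their UMIs, and 1% or more kept a cluster out of the other classes. These cells of het 1 are therefore missing from the class comparisons. Het 1 also gave 2008 of the 2017 cells of cardiomyocyte-like cluster 9. Pairs of libraries shared 14 to 87 barcodes, at most 0.663% of the smaller library. KO 2 held no UMI of the Y-linked gene Ddx3y in cardiomyocyte-, endothelial-, mesenchymal-, epicardial-, erythroid- or macrophage-like cells, while KO 1, het 1 and het 2 held both Ddx3y and Xist. Gata4, a transcription factor gene and the target of the deletion, was at 202 and 191 CPM in KO 1 and KO 2 endothelial-like cells, against 141 and 126 CPM in het 1 and het 2 (CPM, the UMIs of a gene scaled to a fixed total for the class, here with TMM factors that balance composition between libraries). The difference was 0.55 ± 0.14 on the log2 scale (SE, edgeR adjusted p = 0.999), and because the sources used here do not say which part of the gene was deleted, the 3′ counts check nothing about the labels. The matrices also hold 2 added sequences whose content is not given in the sources used here, so their counts are not read as a check either. FloxGata4 had 0 UMIs in the endothelial-like cells of all 4 libraries, and FloxGata4_ctrl had 104 and 46 UMIs in KO 1 and KO 2 and 46 and 44 in het 1 and het 2.

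Nppa (chr4:148000722-148002079, plus strand, GRCm38) and Nppb (chr4:147985788-147987205, plus strand) are neighbours, 13516 bases apart. Nppc lies at chr1:86666291-86670571 (minus strand), Npr1 at chr3:90450591-90465866 (minus), Npr2 at chr4:43631935-43651244 (plus) and Npr3 at chr15:11839896-11907287 (minus). The promoters of Nppa and Nppb are shown because both genes had most of their named-class UMIs in cardiomyocyte-like cells and because the windows hold the letters in capitals, which are known as a recognition sequence of GATA factors. Each window runs from 250 bases before to 50 bases after the RefSeq start in GRCm38.p6, on the plus strand, at chr4:148000472-148000771 for Nppa and chr4:147985650-147985949 for Nppb.

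Nppa promoter: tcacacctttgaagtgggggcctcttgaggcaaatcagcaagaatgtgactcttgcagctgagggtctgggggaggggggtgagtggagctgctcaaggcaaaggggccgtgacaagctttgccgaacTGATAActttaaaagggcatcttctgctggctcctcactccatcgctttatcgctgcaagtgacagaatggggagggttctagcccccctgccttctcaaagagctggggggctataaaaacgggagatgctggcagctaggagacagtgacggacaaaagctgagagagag

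Nppb promoter: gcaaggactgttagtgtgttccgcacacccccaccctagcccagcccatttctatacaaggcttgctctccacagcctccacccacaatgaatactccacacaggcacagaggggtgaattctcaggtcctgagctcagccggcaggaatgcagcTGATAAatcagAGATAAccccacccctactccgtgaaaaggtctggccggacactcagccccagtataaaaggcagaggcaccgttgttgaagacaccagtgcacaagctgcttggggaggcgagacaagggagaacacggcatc

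The letters searched on both strands were AGATAA or AGATAG, and likewise TGATAA or TGATAG. Nppa held 1 match, at -122 to -117 from the RefSeq start, and Nppb held 2, at -95 to -90 and -84 to -79. The GENCODE M21 start of Nppb, chr4:147985788, lies inside its window and upstream of both matches. The windows of Nppc, Npr1, Npr2 and Npr3 held none. Of 32851 mouse promoters of the same length, 29.8% held at least 1 match. The Nppa window also held 2 matches to AAGTG, the core bound by NKX factors (46.4% of promoters), and 1 to AGGTGT, bound by T-box factors (13.7% of promoters). The shorter core GATA, which lies inside each of the longer GATA matches, had 2 matches in Nppa, 2 in Nppb and 1 in Npr2 and was held by 57.9% of promoters. TATAAA had 1 match each in Nppa, Nppb and Nppc (13.6% of promoters), and the CArG box none in the 6 windows (1.63%). A match is a run of letters and not a measured binding site.

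Nppa was a cardiomyocyte gene in these ventricles. In cardiomyocyte-like cells its level over plain class totals was 1792 and 1511 CPM in KO 1 and KO 2 and 1425 and 1286 CPM in het 1 and het 2. The next class, endothelial-like cells, averaged 58.5 ± 42.4 CPM (SD over 4 libraries), and the highest library there, 121 CPM in het 1, lay far below the lowest cardiomyocyte-like library. The endothelial-, megakaryocyte-, erythroid-, mesenchymal-, epicardial- and macrophage-like classes, from 58.5 down to 25.3 CPM on average, overlapped with their neighbours in that order. Cardiomyocyte-like cells held 92.1% of Nppa UMIs in KO 1, 97.2% in KO 2, 48.3% in het 1 and 96.1% in het 2. The low share of het 1 went with its unnamed cells, which held 48.1% of its Nppa UMIs.

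Nppa UMIs outside the cardiomyocyte-like class were set against the amount of other heart muscle RNA in the same cells. Per 1000 UMIs of the 14 cardiomyocyte markers, cardiomyocyte-like cells had 23.9 and 18.8 Nppa UMIs in KO 1 and KO 2 and 19.3 and 15.8 in het 1 and het 2. Endothelial-like cells had 18.8 and 20.4 in KO 1 and KO 2 and 13.8 and 19.7 in het 1 and het 2, and erythroid-like cells, which should lack the gene, had 25.0 and 24.8 in KO 1 and KO 2 and 28.0 and 16.1 in het 1 and het 2. The ratio in endothelial-like cells was below both of the other classes in KO 1 and het 1, between them in KO 2 and above both in het 2. Other classes spread more widely. Epicardial-like cells had 17.6 and 3.12 in KO 1 and KO 2 and 12.6 and 5.48 in het 1 and het 2, and macrophage-like cells 24.1 and 7.61 in KO 1 and KO 2 and 14.9 and 10.5 in het 1 and het 2. Endocardial cluster 13 had 22.3 and 32.4 in KO 1 and KO 2 and 11.3 and 38.7 in het 1 and het 2, so that its KO 2 and het 2 values lay above those of cardiomyocyte-like cells in the same libraries. Whether the Nppa UMIs outside the cardiomyocyte-like class were made in those cells was not tested.

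Within heart muscle, Nppa was high in the trabecular-type cluster and in clusters 8 and 7, and low in cluster 0. Cluster 12, led by Cited1, Irx3 and Myl1 and called trabecular-type from its markers, had 2899 and 2365 CPM in KO 1 and KO 2 and 5477 and 2276 CPM in het 1 and het 2. Cited1 and Irx3 are trabecular markers, while Myl1 is on the atrial marker list. The mean log2 level of the whole trabecular list, against other cardiomyocyte-like clusters, was 0.47 in cluster 12 and 0.36 in cluster 8. That of the atrial list was -0.75 in cluster 12. Cluster 0, led by Tnnt1 and Mb, had 304 and 153 CPM in KO 1 and KO 2 and 333 and 156 CPM in het 1 and het 2, below cluster 12 in every library. Cluster 8, of deeply sequenced cells led by Ttn and Ryr2, averaged 2632 ± 744 CPM, above cluster 12 in KO 1 and KO 2 and below it in het 1 and het 2. Cluster 7, of low-UMI cells, averaged 2438 ± 1066 CPM, so that clusters 12, 8 and 7 overlapped. Against all other cells, cluster 7 was led by Hrc, Slc8a1 and Cacna1c. Against other cardiomyocyte-like clusters, it was led by Col3a1, Col1a1, Fn1 and the globin gene Hbb-bh1. Whether it holds RNA of other cell types was not tested. Cluster 8 held 66.97% and 77.4% of all Nppa UMIs in KO 1 and KO 2 and 23.4% and 81.8% in het 1 and het 2, against 13.2% and 12.3% in KO 1 and KO 2 and 2.81% and 6.13% in het 1 and het 2 for cluster 12. The cycling clusters 17 (Ube2c, Ccnb1) and 2 (Rrm2, histone genes) averaged 651 ± 734 and 456 ± 300 CPM. Cluster 27, led by Myh6, Sln and Shox2 and called atrial or atrioventricular, averaged 413 ± 348 CPM, with 930 CPM in het 2 as its highest library; it held 31 to 92 cells per library and was not tested.

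**Figure D1:**
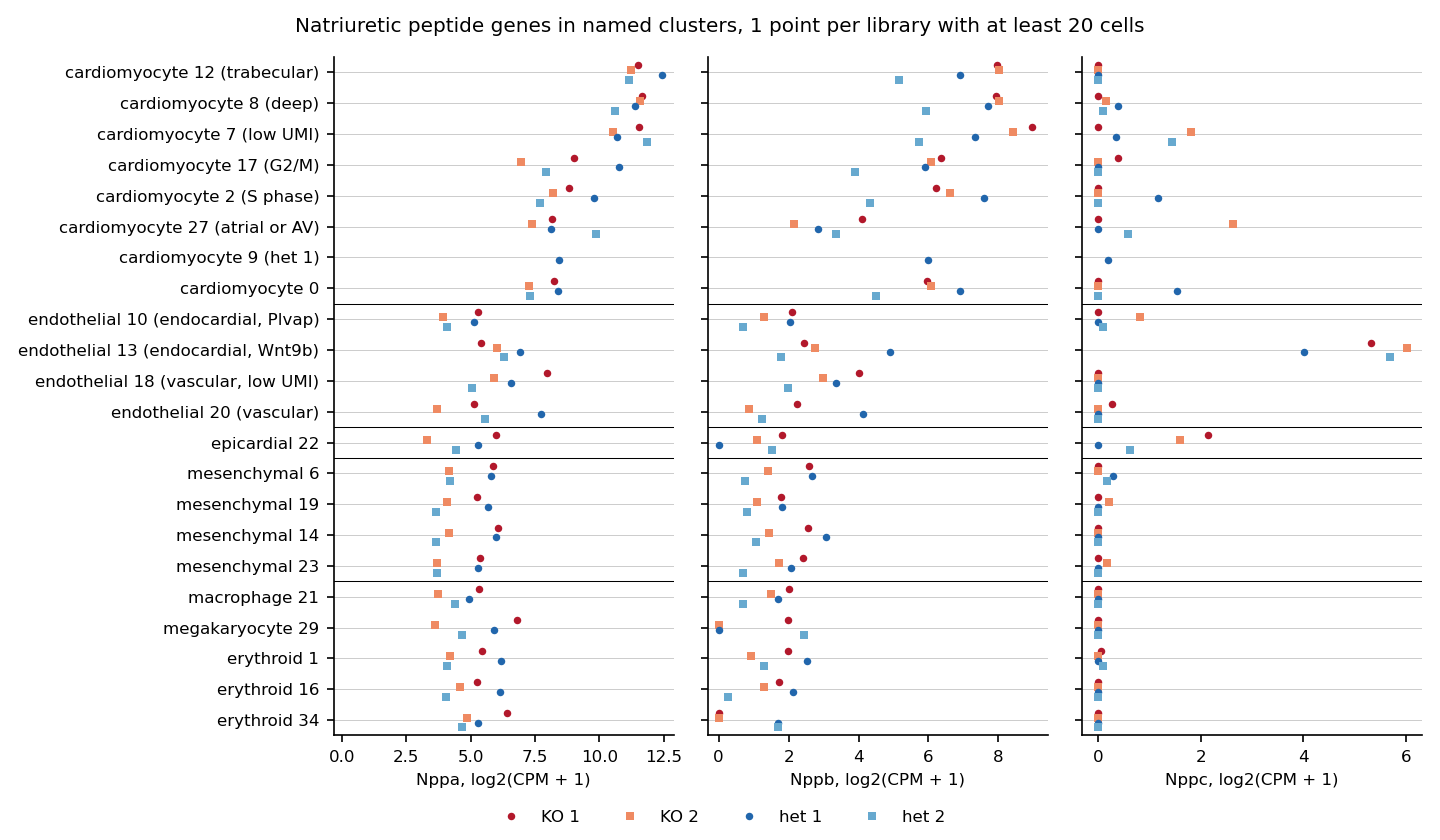
Level of Nppa, Nppb and Nppc, as log2(CPM + 1) on the horizontal axis, in each of 22 named clusters (rows), with 1 point per library that had at least 20 cells. KO libraries are red and orange, het libraries are blue. Nppa and Nppb are high in cardiomyocyte-like clusters (except Nppb in cluster 27, at 8.69 CPM on average), with Nppb of het 2 lowest in 6 of 7 of them (cluster 9, seen in het 1 alone, left out), and Nppc stands above its background in endothelial cluster 13.

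Few cells carried most of the Nppa. Cells were thinned to 2000 UMIs, and shallower cells were left out. This kept 4703 of 6832 and 2815 of 3633 cardiomyocyte-like cells in KO 1 and KO 2. In het 1 and het 2 it kept 5025 of 5338 and 3182 of 4106. The share of cardiomyocyte-like cells with an Nppa UMI was then 36.5% and 23.4% in KO 1 and KO 2 and 44.0% and 22.6% in het 1 and het 2. Without thinning it was 52.7% and 40.4% in KO 1 and KO 2 and 60.1% and 40.3% in het 1 and het 2, at median depths of 3350, 5289, 4194 and 6106 UMIs. In erythroid-like cells, taken as a background, the thinned share was 8.32% and 3.77% in KO 1 and KO 2 and 10.2% and 3.43% in het 1 and het 2. The background may differ in shallow cells, which was not tested. Low-UMI endothelial cluster 18 averaged 108 ± 95.6 CPM of Nppa, against 37.1 ± 26.35 CPM in erythroid cluster 1. In trabecular-type cluster 12 the thinned share was 66.2% and 61.4% in KO 1 and KO 2 and 84.3% and 53.7% in het 1 and het 2. The tenth of cardiomyocyte-like cells with the most Nppa held 83.1% and 91.0% of the thinned UMIs in KO 1 and KO 2 and 72.6% and 91.8% in het 1 and het 2. The highest single cells had 151 and 176 of 2000 UMIs in KO 1 and KO 2 and 209 and 195 in het 1 and het 2.

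Nppb was likewise a cardiomyocyte gene. In cardiomyocyte-like cells its plain level was 160 and 166 CPM in KO 1 and KO 2 and 132 and 48.2 CPM in het 1 and het 2, and endothelial-like cells, next in order, averaged 6.19 ± 7.19 CPM. Cardiomyocyte-like cells held 93.7% and 97.5% of Nppb UMIs in KO 1 and KO 2 and 56.1% and 93.1% in het 1 and het 2. By cluster, Nppb averaged 262 ± 197 CPM in cluster 7, 192 ± 90.6 in cluster 8, 165 ± 107 in cluster 12, 95.6 ± 72.5 in cluster 2 and 66.9 ± 39.8 in cluster 0. These neighbours overlapped. Cluster 27 averaged 8.69 ± 5.42 CPM, with 19 and 2 UMIs in KO 1 and KO 2 and 3 and 18 in het 1 and het 2, close to the endothelial-like level, while its Nppa, at 167 CPM in the lowest library, lay above the endothelial-like range.

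Cells rich in Nppa also carried Nppb more often. Among thinned cardiomyocyte-like cells with 5 or more Nppa UMIs, 41.6% in KO 1 (95% Wilson interval, for counting error only, 37.1 to 46.2%) and 43.0% in KO 2 (36.2 to 50.1%) had an Nppb UMI, against 26.2% in het 1 (22.8 to 29.9%) and 16.4% in het 2 (12.2 to 21.7%). Among cells with no Nppa UMI, the share was 8.74% and 8.35% in KO 1 and KO 2 and 12.2% and 4.34% in het 1 and het 2. Every library had its highest share in the Nppa-rich cells, and the KO libraries lay above the het libraries there. Within trabecular-type cluster 12 the Nppa-rich cells had an Nppb UMI in 42.9% and 38.0% of cases in KO 1 and KO 2 and in 20.9% and 5.71% in het 1 and het 2. In het 2 that share (interval 2.24 to 13.8%) overlapped with the 10.1% (6.09 to 16.2%) of its cluster 12 cells without Nppa. Cells of 1 library are not replicates, and these shares were not tested.

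**Figure D2:**
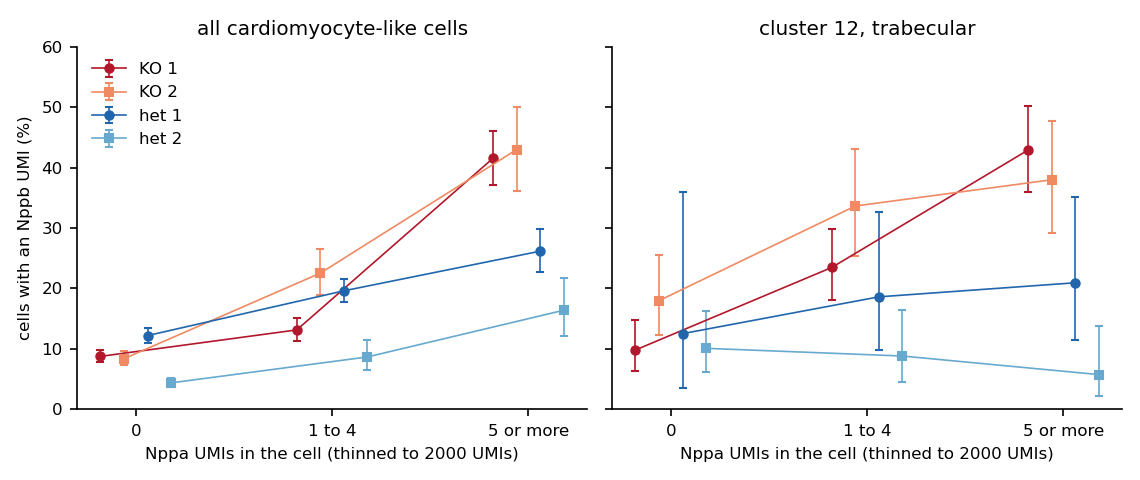
Share of cells with an Nppb UMI (vertical axis, percent, with 95% Wilson intervals for counting error) by the number of Nppa UMIs in the same cell (horizontal axis). Cells were thinned to 2000 UMIs, and shallower cells were left out. Lines join the classes of 1 library: KO 1 and KO 2 end at 41.6% and 43.0% in all cardiomyocyte-like cells, above het 1 and het 2 at 26.2% and 16.4%.

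For the genotype comparison, KO against het, edgeR's quasi-likelihood test was run on the UMI sums of each library and class with TMM scaling. In cardiomyocyte-like cells Nppa was at 1757 and 1652 CPM in KO 1 and KO 2, against 1380 and 1241 CPM in het 1 and het 2. Both KO libraries lay above both het libraries, with a log2 difference of 0.38 ± 0.19 (SE). Nppb was at 156 and 181 CPM in KO 1 and KO 2, against 128 and 46.5 CPM in het 1 and het 2, a log2 difference of 0.96 ± 0.41. The KO libraries were again both higher, and most of the distance came from het 2. For both genes the adjusted p over 16555 genes was 1, and no gene passed 0.05 in this class (0% of those tested, with 295 at an unadjusted p under 0.05; DESeq2 also called 0). Of the 5 members tested, 2 had both KO libraries above both het libraries, a position held by 14.1% of all genes, and 1 had both below, as did 14% of genes.

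In the trabecular-type cluster the estimate for Nppb was larger than in the whole class, a distance that was not tested. There Nppb was at 242 and 264 CPM in KO 1 and KO 2, against 119 and 35.5 CPM in het 1 and het 2. The log2 difference was 1.95 ± 0.35, with 66 and 74 UMIs behind the het 1 and het 2 values and an edgeR adjusted p of 0.722 over 9342 genes. No gene of this cluster passed 0.05 (0%, with 344 at an unadjusted p under 0.05; DESeq2 also called 0), and 17.1% of genes had both KO libraries higher. The call depended on the setting: the adjusted p ran from 4.23e-14 to 1 over 15 alternatives, of which 5 passed. Without KO 1, KO 2 or het 1 the differences were 1.98, 1.86 and 2.82, and without het 2 the difference was 1.10. Each of these fits leaves a lone library in its group, whose own spread is then not measured. Nppa in the same cluster was at 2856 and 2409 CPM in KO 1 and KO 2, against 5480 and 2332 CPM in het 1 and het 2, a difference of -0.57 ± 0.27 in which the libraries overlapped. Without het 1, which gave 109 of the cluster's cells, the Nppa difference turned to 0.17, and at clustering resolution 2 to 0.51. Without het 2 it was -1.04, again with a lone het library, and this 1 of 15 alternatives passed.

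The cardiomyocyte-like class did not hold the same mix of clusters in every library. Cluster 8, high in both peptides, held 40.1% and 39.8% of the class's UMIs in KO 1 and KO 2 and 25.6% and 69.7% in het 1 and het 2. Cluster 9, at 347 CPM of Nppa and 62.9 CPM of Nppb in het 1, held 36.3% of these UMIs in het 1 and at most 0.0736% in another library. Cluster 7 held 28.9% in het 1, against 1.40% and 0.984% in KO 1 and KO 2 and 0.975% in het 2. With cluster 9 left out, 7 clusters were weighted the same in every library. Nppa was then at 2203 and 1816 CPM in KO 1 and KO 2 and 2043 and 1407 CPM in het 1 and het 2, so the groups overlapped. Nppb was at 213 and 203 CPM in KO 1 and KO 2 and 168 and 43.3 CPM in het 1 and het 2, which did not overlap. The share of all genes so placed at these weights was not computed. These weighted levels were added after the data had been seen, and the part of the mix in the result was not tested further. Without the clusters led by het 1 the log2 differences were 0.08 for Nppa and 0.74 for Nppb. Leaving out het 1 brought the Nppb difference to 1.86, and leaving out het 2 brought it to 0.41, each in a fit with a lone het library. Over the 16 alternatives the adjusted p of Nppb (edgeR, DESeq2 or limma-voom) ran from 1.77e-07 to 1. KO 1 and KO 2 had 8.91 and 11.0 Nppb UMIs per 100 Nppa UMIs in this class, against 9.26 in het 1 and 3.75 in het 2.

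Single cardiomyocyte-like clusters gave the same order for some members. In cluster 8 Nppa was at 3156 and 3149 CPM in KO 1 and KO 2, against 2536 and 1654 CPM in het 1 and het 2 (0.59 ± 0.28). Nppb in that cluster was at 237 and 268 CPM in KO 1 and KO 2, against 194 and 63.2 CPM in het 1 and het 2 (0.98 ± 0.47). Both KO libraries lay above both het libraries for these 2 members, as for 10.3% of the genes of the cluster. In cluster 7 Nppb was at 515 and 357 CPM in KO 1 and KO 2, against 170 and 53.6 CPM in het 1 and het 2 (1.88 ± 0.43), again with both KO libraries higher, as for 12.3% of genes. Cluster 7, led within its class by collagen and globin genes, had 180 and 90 cells in KO 1 and KO 2 and 2257 and 91 in het 1 and het 2. In cycling cluster 17 Nppb was at 81.0 and 69.0 CPM in KO 1 and KO 2, against 56.9 and 14.2 CPM in het 1 and het 2 (1.52 ± 0.41), the position of 13.8% of genes there. Nppb overlapped in the other 2 clusters where it was tested. In cluster 0 it was at 59.2 and 69.4 CPM in KO 1 and KO 2, against 115 and 22.2 CPM in het 1 and het 2 (0.07 ± 0.57). In cluster 2 the levels were 71.9 and 99.5 CPM in KO 1 and KO 2, against 190 and 19.6 CPM in het 1 and het 2 (-0.03 ± 0.68). Het 1 was highest in both. In cluster 0 the receptor Npr1 was at 3.002 and 4.55 CPM in KO 1 and KO 2, against 9.18 and 6.14 CPM in het 1 and het 2 (-0.93 ± 0.45), both lower, as for 11.1% of genes. The edgeR adjusted p was 1 in each of these tests. In erythroid-like cells 0 members had their groups apart, while 28.8% of genes had both KO libraries higher and 28.4% both lower.

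Nppc was found mainly in 1 endocardial cluster. Cluster 13, called endocardial from its markers and led by Wnt4, Aqp1 and Wnt9b, had 39.0 and 63.2 CPM in KO 1 and KO 2 and 15.01 and 50.2 CPM in het 1 and het 2. Endocardial cluster 10, led by Plvap, Adgrg6 and Emcn, had 0 and 0.759 CPM in KO 1 and KO 2 and 0 and 0.0705 CPM in het 1 and het 2. Macrophage-like cells held 0 Nppc UMIs in all 4 libraries. The endothelial-like class held 86.0% and 91.8% of all Nppc UMIs in KO 1 and KO 2 and 47.0% and 97.5% in het 1 and het 2, and 46.4% of those of het 1 lay in unnamed cells.

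Even in cluster 13 the Nppc came from few cells. It was seen in 29 of 260 cells in KO 1, 16 of 115 in KO 2, 60 of 731 in het 1 and 39 of 411 in het 2. The 5 richest cells held 130 of 201 UMIs in KO 1, 205 of 239 in KO 2, 17 of 86 in het 1 and 285 of 510 in het 2, and 1 cell of KO 2 held 123. Het 1 differed in form, with at most 4 UMIs in a cell. The TMM-scaled levels were 37.5 and 65.1 CPM in KO 1 and KO 2, against 14.9 and 52.0 CPM in het 1 and het 2, with overlap between the groups and a log2 difference of 0.58 ± 0.53 (edgeR adjusted p = 1). Without het 2 the difference was 1.78, the 1 of 13 alternatives that passed, and without het 1 it was -0.020. Both fits had a lone het library.

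Epicardial-like cells held traces of Nppc, 31 UMIs in 17 cells of KO 1 and 14 UMIs in 7 cells of KO 2, against 0 UMIs among 82 cells of het 1 and 4 UMIs in 4 cells of het 2. Both KO libraries were higher, as for 12.1% of genes in this class (11.1% had both lower), and the edgeR adjusted p was 1 (0% of 13917 genes passed; 222 had an unadjusted p under 0.05 and DESeq2 called 3). The 3 UMIs that a count of 0 allows would put het 1 at up to 1.56 CPM, against plain levels of 3.40 CPM in KO 1, 2.03 CPM in KO 2 and 0.541 CPM in het 2. The 82 cells may not stand for the epicardium of het 1. Unnamed cluster 11, led by Upk3b, Apela and Krt18, gave 1653 cells of het 1 and is not in this class. At clustering resolution 2 the class held 862 cells of het 1.

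Npr1 had a similar endothelial level in every library. Its plain level in endothelial-like cells was 30.6 ± 2.14 CPM (SD over 4 libraries), above the 13.04 ± 1.18 CPM of macrophage-like cells in every library and without overlap. By cluster, Npr1 averaged 40.2 ± 3.87 CPM in endocardial cluster 13, 31.9 ± 2.83 in endocardial cluster 10, 19.1 ± 3.06 in vascular cluster 20 (led by Fabp4, Kcne3 and Cldn5) and 15.3 ± 4.83 in low-UMI vascular cluster 18. Clusters 13 and 10 did not overlap with each other or with cluster 20, while clusters 20, 18 and the macrophage-like cells formed an overlapping run. Cardiomyocyte-like cells had 3.21 ± 0.395 CPM and erythroid-like cells 0.549 ± 0.189 CPM. At 2000 UMIs per cell, 7.36% and 5.90% of endothelial-like cells in KO 1 and KO 2 and 5.22% and 6.16% in het 1 and het 2 had an Npr1 UMI, against 0.0909% and 0.126% of erythroid-like cells in KO 1 and KO 2 and 0.204% and 0 of 1575 in het 1 and het 2 (which allows up to 0.191%). Without thinning the endothelial-like shares were 31.1% and 37.2% in KO 1 and KO 2 and 16.53% and 36.0% in het 1 and het 2, at median depths of 10950, 18200, 4902 and 15540 UMIs.

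Npr1 did not pass the test in any class. The TMM-scaled level in endothelial-like cells was 31.8 and 31.2 CPM in KO 1 and KO 2, against 27.8 and 31.9 CPM in het 1 and het 2, with overlap and a log2 difference of 0.08 ± 0.14. In mesenchymal-like cells Npr1 was at 2.03 and 2.06 CPM in KO 1 and KO 2, against 2.68 and 2.18 CPM in het 1 and het 2 (-0.23 ± 0.30). It was the 1 member there with its groups apart, in the position of 9.47% of genes, while 0 members had both KO libraries higher, against 9.49% of genes. Macrophage-like cells had 13.3 and 13.8 CPM in KO 1 and KO 2, against 10.9 and 14.4 CPM in het 1 and het 2 (0.09 ± 0.23). In cluster 10 both KO libraries, at 33.8 and 34.6 CPM, lay above het 1 and het 2, at 29.95 and 29.6 CPM, a difference of 0.20 ± 0.16, and 15.5% of genes of that cluster had the same position. The edgeR adjusted p was 1 in all 4 tests, and no gene of cluster 10 passed 0.05 (0% of 14150).

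Npr2 was spread thinly over several classes. Mesenchymal-like cells had a plain level of 13.7 and 7.34 CPM in KO 1 and KO 2 and 10.7 and 8.88 CPM in het 1 and het 2. Epicardial-like cells averaged 7.23 ± 2.88 CPM, endothelial-like cells 5.599 ± 1.58 and cardiomyocyte-like cells 3.54 ± 0.852, each overlapping with the next, while macrophage-like cells, at 0.53 ± 0.322 CPM, lay below all of them. Among named clusters the highest was mesenchymal cluster 6, led by Postn and holding Sox9 among its leading genes, at 15.6 ± 4.64 CPM. Atrial or atrioventricular cluster 27 followed at 11.9 ± 1.66 CPM, from 13 and 8 UMIs in KO 1 and KO 2 and 5 and 25 UMIs in het 1 and het 2. Trabecular-type cluster 12 had 2 and 1 UMIs in KO 1 and KO 2 and 1 and 0 in het 1 and het 2, so Npr2 was at or under the floor of 3 counts there.

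At this depth single cells say little about Npr2. After thinning, 3.52% and 2.17% of mesenchymal-like cells in KO 1 and KO 2 and 1.499% and 1.93% in het 1 and het 2 had an Npr2 UMI, against 0.0909% and 0.126% of erythroid-like cells in KO 1 and KO 2 and 0.102% and 0.0635% in het 1 and het 2. The TMM-scaled mesenchymal-like level was 13.2 and 7.64 CPM in KO 1 and KO 2, against 10.6 and 9.10 CPM in het 1 and het 2. The KO libraries bracketed the het libraries, and the difference was 0.08 ± 0.27 (edgeR adjusted p = 1), with a sign that turned when single libraries were left out (-0.35 to 0.43). In cardiomyocyte-like cells Npr2 was at 3.70 and 2.49 CPM in KO 1 and KO 2, against 3.90 and 3.92 CPM in het 1 and het 2. Both KO libraries were lower there, by 0.34 ± 0.26 on the log2 scale, with an edgeR adjusted p of 1.

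Npr3 was an endothelial and epicardial gene. Endothelial-like cells had 678 and 457 CPM of plain level in KO 1 and KO 2 and 372 and 284 CPM in het 1 and het 2. Epicardial-like cells had 284 and 95.2 CPM in KO 1 and KO 2 and 276 and 104 CPM in het 1 and het 2, just below the endothelial range and above that of megakaryocyte-like cells, where 58 UMIs came from KO 1 and at most 1 from each other library. Mesenchymal-like cells averaged 15.6 ± 3.11 CPM and cardiomyocyte-like cells 7.87 ± 5.94. Endothelial-like cells held 77.5% and 88.2% of all Npr3 UMIs in KO 1 and KO 2 and 50.1% and 85.2% in het 1 and het 2, with 37.7% of those of het 1 in unnamed cells.

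Within the endothelium, Npr3 was concentrated in endocardial cluster 10. That cluster had 1203 and 730 CPM in KO 1 and KO 2 and 988 and 566 CPM in het 1 and het 2, and alone held 65.6% and 82.6% of the Npr3 UMIs of KO 1 and KO 2 and 38.4% and 73.7% of those of het 1 and het 2. Endocardial cluster 13, the one with Nppc, had 315 and 90.4 CPM in KO 1 and KO 2 and 165 and 92.7 CPM in het 1 and het 2. Vascular cluster 20 had 63.5 and 43.7 CPM in KO 1 and KO 2 and 60.3 and 23.6 CPM in het 1 and het 2. Low-UMI vascular cluster 18 averaged 165 ± 82.8 CPM, close to the 166 ± 105 CPM of cluster 13. Its vascular name is weak: against other endothelial-like clusters, the mean log2 level of vascular markers was -0.91 and that of endocardial markers -1.59. Every library had Npr3 highest in cluster 10 and lowest in cluster 20, while Npr1 was highest in cluster 13. After thinning, 83.1% and 71.8% of cluster 10 cells in KO 1 and KO 2 and 78.3% and 61.9% in het 1 and het 2 had an Npr3 UMI. In erythroid-like cells the share was 0.546% in KO 1, 0 of 795 cells in KO 2 (which allows up to 0.377%), 1.22% in het 1 and 0.0635% in het 2.

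**Figure D3:**
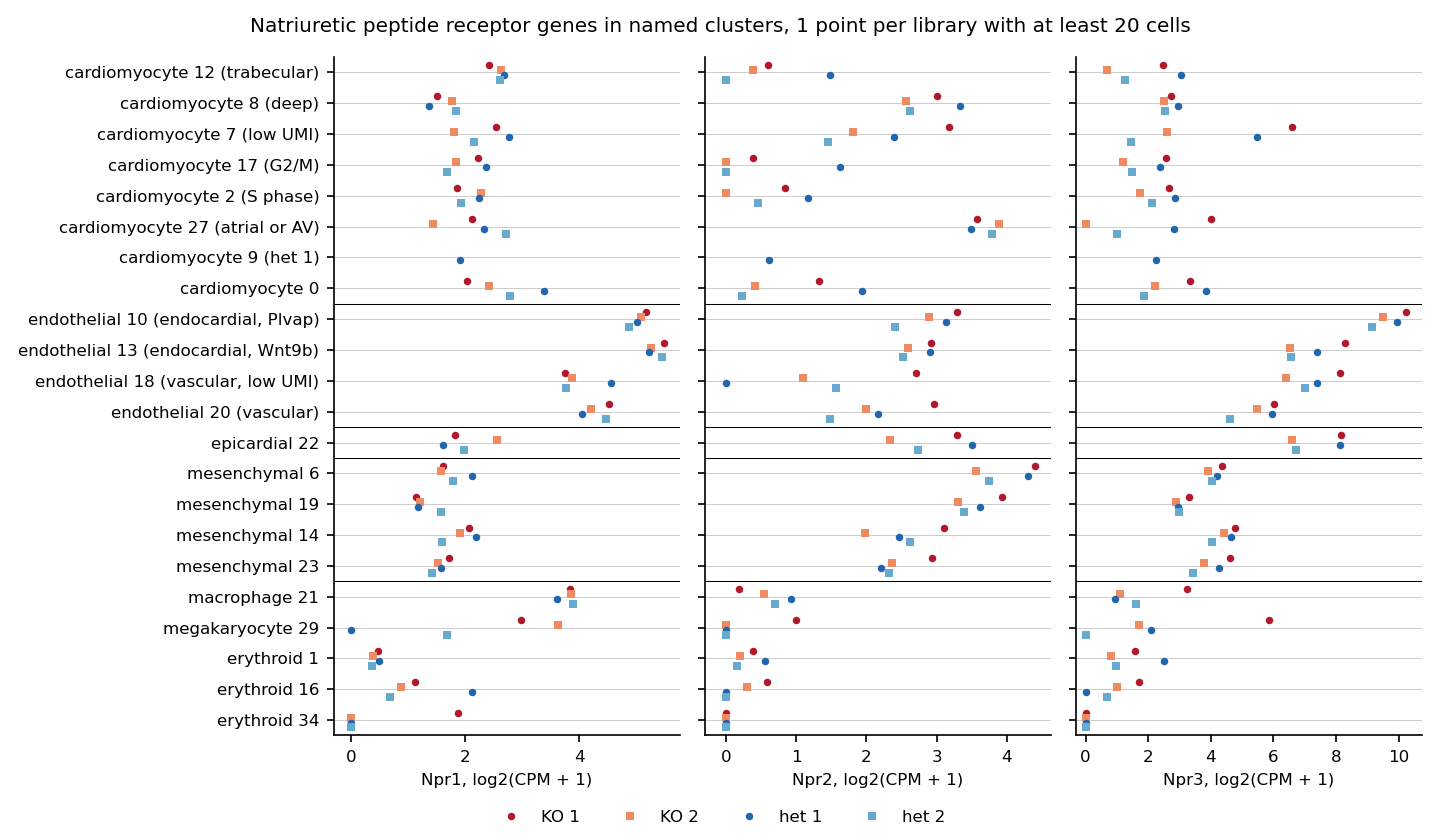
Level of Npr1, Npr2 and Npr3, as log2(CPM + 1) on the horizontal axis, in each named cluster (rows), with 1 point per library that had at least 20 cells. KO libraries are red and orange, het libraries are blue. Npr3 stands highest in endothelial cluster 10 (566 to 1203 CPM), Npr1 in endothelial clusters 13 and 10, and Npr2 is low everywhere, with its highest mean in mesenchymal cluster 6 (15.6 CPM).

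In the genotype comparison Npr3 was at 645 and 474 CPM in KO 1 and KO 2 endothelial-like cells, against 366 and 294 CPM in het 1 and het 2. Both KO libraries were higher, as for 14.2% of genes in this class, and the log2 difference was 0.76 ± 0.22 (edgeR adjusted p = 1 over 15875 genes). No gene passed 0.05 in this class with edgeR (0%, with 638 at an unadjusted p under 0.05), while DESeq2 called 43. Among the 16 alternatives the Npr3 difference ran from 0.54 to 0.96 with adjusted p from 0.00564 to 1, and 2 of them passed.

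In the pooled endocardial clusters 10 and 13 Npr3 was at 860 and 605 CPM in KO 1 and KO 2, against 505 and 383 CPM in het 1 and het 2 (0.72 ± 0.25, edgeR adjusted p = 1), with both KO libraries higher, as for 14.5% of genes. Inside clusters 10, 13 and 20 taken singly the groups overlapped. In cluster 10 Npr3 was at 1161 and 768 CPM in KO 1 and KO 2, against 937 and 593 CPM in het 1 and het 2, which overlapped (0.34 ± 0.31). Without KO 1 that difference was 0.0012 and without het 2 it was 0.05. In cluster 13 the levels were 303 and 93.1 CPM in KO 1 and KO 2, against 164 and 95.9 CPM in het 1 and het 2, with overlap (0.62 ± 0.51) and a difference of -0.47 without KO 1. Cluster 10, where Npr3 is high, held 47.7% and 58.6% of the endothelial-like UMIs of KO 1 and KO 2 and 28.9% and 43.5% of those of het 1 and het 2. With the 4 endothelial clusters weighted the same in every library, a calculation added after the data had been seen, Npr3 was at 651 and 365 CPM in KO 1 and KO 2 and 509 and 289 CPM in het 1 and het 2, and the groups overlapped. At these weights and in cluster 10, KO 1 lay above het 1 and KO 2 above het 2. In clusters 13 and 18 KO 2 lay below het 2, and in cluster 20 KO 1 (59.9 CPM) lay below het 1 (62.5 CPM). What a shared replicate number means is not given in the labels. KO 1 was the highest library in 4 of 4 endothelial clusters.

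**Figure D4:**
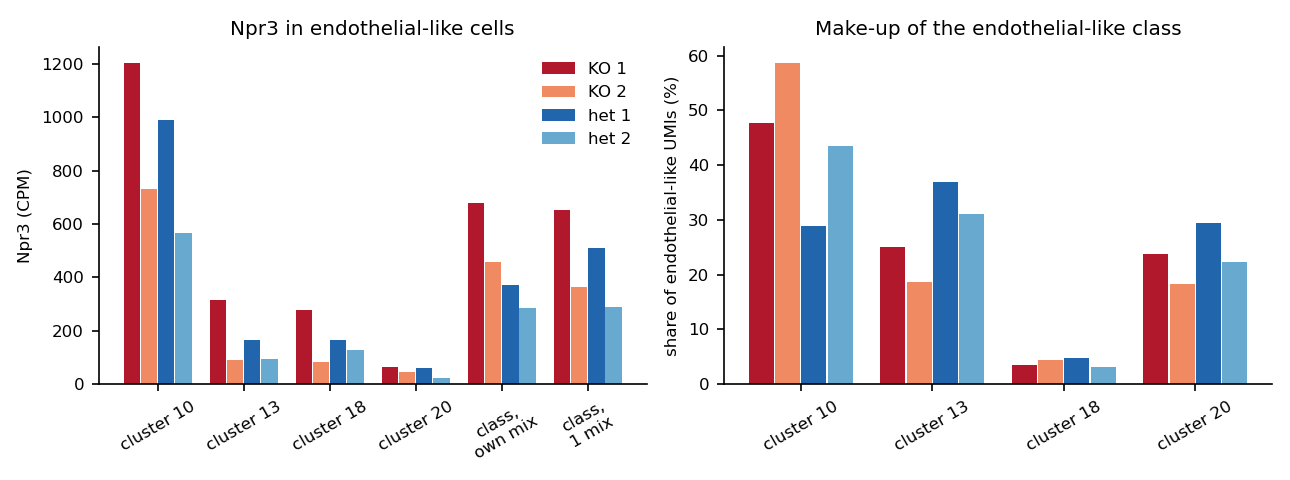
Npr3 in endothelial-like cells. The left panel gives the level in CPM by library in the 4 clusters, in the class as it is (own mix) and with the clusters weighted the same in every library (1 mix), and the right panel the share of the class's UMIs in each cluster (percent), KO libraries left of het libraries. The class levels of KO 1 and KO 2 (678 and 457 CPM) stand above those of het 1 and het 2 (372 and 284 CPM), the levels inside cluster 10 overlap, and cluster 10 takes 47.7% and 58.6% of UMIs in KO 1 and KO 2, against 28.9% and 43.5% in het 1 and het 2.

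Outside the endothelium Npr3 did not pass the KO against het test with all libraries and no further term in the model. Epicardial-like cells had 276 and 99.4 CPM in KO 1 and KO 2, against 260 and 110 CPM in het 1 and het 2, so that replicate 1 of each group was high and replicate 2 low, and the difference was 0.04 ± 0.47. It ran from -0.88 without KO 1 to 0.78 without het 1. Mesenchymal-like cells had 18.4 and 13.99 CPM in KO 1 and KO 2, against 16.9 and 12.9 CPM in het 1 and het 2 (0.13 ± 0.21). In cardiomyocyte-like cells Npr3 was at 7.56 and 3.67 CPM in KO 1 and KO 2, against 15.8 and 3.97 CPM in het 1 and het 2. The difference of -0.80 ± 0.60 turned to 0.50 without het 1 and was -1.48 without het 2, each with a lone het library. Of the 16 alternatives 2 passed. The edgeR adjusted p was 1 in each of these 3 classes with all libraries. In mesenchymal-like cells 0% of 16885 genes passed 0.05, with 172 at an unadjusted p under 0.05 and 1 called by DESeq2.

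Nppa in endothelial-like cells was highest in the library with most cardiomyocyte RNA, and the part of that RNA in the result was not tested. It was at 43.5 and 26.2 CPM in KO 1 and KO 2, against 119 and 43.9 CPM in het 1 and het 2, a difference of -1.22 ± 0.48 (edgeR adjusted p = 1) with both KO libraries lower, as for 14.6% of genes. All 14 cardiomyocyte markers had a UMI in these cells in every library, and together they took 0.243% and 0.124% of UMIs in KO 1 and KO 2, against 0.873% and 0.215% in het 1 and het 2. Without het 1 the Nppa difference was -0.33, and without het 2 it was -1.76, each with a lone het library. Of the 16 alternatives 3 passed. In cluster 10, where cardiomyocyte markers took 0.222% and 0.0957% of UMIs in KO 1 and KO 2 and 0.183% and 0.157% in het 1 and het 2, the Nppa levels of 37.1 and 15.1 CPM in KO 1 and KO 2 overlapped with 32.7 and 16.7 CPM in het 1 and het 2. In cluster 13 Nppa was at 40.3 and 66.4 CPM in KO 1 and KO 2, against 118 and 80.2 CPM in het 1 and het 2 (-0.90 ± 0.29), with both KO libraries lower, as for 15.3% of genes. Cardiomyocyte markers took 0.188% and 0.199% of its UMIs in KO 1 and KO 2 and 1.05% and 0.201% in het 1 and het 2, so the shares of KO 1, KO 2 and het 2 were close to each other. In vascular cluster 20 Nppa was at 32.4 and 12.52 CPM in KO 1 and KO 2, against 220 and 46.9 CPM in het 1 and het 2 (-2.53 ± 0.70), again with both KO libraries lower, as for 16% of genes. The markers took 0.255% and 0.106% of UMIs there in KO 1 and KO 2 and 1.31% and 0.341% in het 1 and het 2. The edgeR adjusted p was 1 in cluster 13 and 0.690 in cluster 20.

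An interaction term, in a model with a term for each library, compared the KO against het effect between the endothelial-like and cardiomyocyte-like classes (endothelial-like minus cardiomyocyte-like). The difference of effects was -1.50 ± 0.46 for Nppa, -1.95 ± 0.68 for Nppb and 1.32 ± 0.57 for Npr3 on the log2 scale, each with an edgeR adjusted p of 0.670. None of the 18307 genes passed 0.05 (0%, with 1261 at an unadjusted p under 0.05). Without het 2 the differences were -2.12 for Nppa, -2.78 for Nppb and 2.14 for Npr3. Without het 1 the 3 differences were -0.87, -0.79 and 0.44. Both fits had a lone het library. Npr2 (0.78 ± 0.28), Npr1 (0.11 ± 0.25) and Nppc (0.97 ± 1.38) had adjusted p of 0.670, 0.905 and 0.834.

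**Figure D5:**
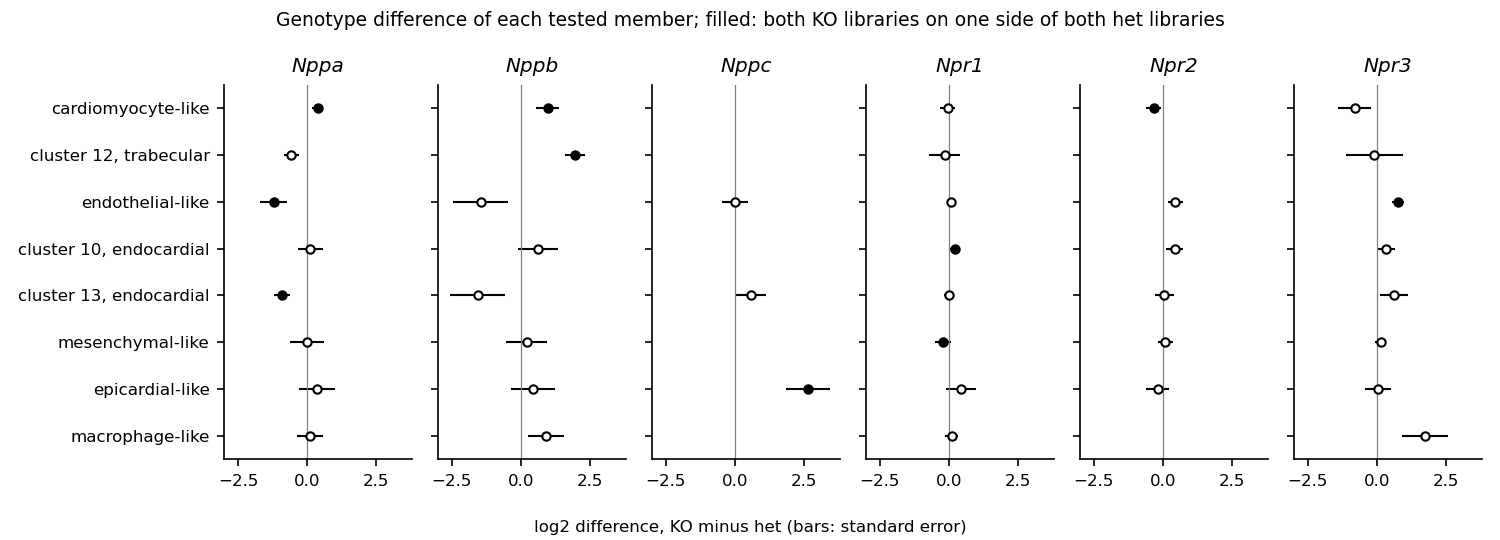
Log2 difference, KO minus het, of each member in the cell classes and clusters where it was tested (points, with bars of 1 standard error; values above 0 are higher in KO). Filled points mark members with both KO libraries on the same side of both het libraries. Nppb in trabecular-type cluster 12 (1.95) and in cardiomyocyte-like cells (0.96) and Npr3 in endothelial-like cells (0.76) lie above 0, Nppa in endothelial-like cells lies below (-1.22), and no member passed an adjusted p of 0.05.

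The genes around the peptide system showed no call in either class. Of the peptide processing and clearance list (9 genes), 8 were tested, with 2 above 0 in cardiomyocyte-like and 4 above 0 in endothelial-like cells and medians of -0.16 and 0.03 on the log2 scale. Of the cGMP signalling list (23 genes), 20 and 21 were tested, 8 and 12 lay above 0 and the medians were -0.07 and 0.03. Of the 18 regulators of the peptide genes, 9 and 8 lay above 0, with medians of 0.02 and -0.03. Of 9 neighbours of Nppa and Nppb on the chromosome, 9 and 8 were tested, 6 and 2 lay above 0 and the medians were 0.06 and -0.14. Medians over all genes were -0.0011 and -0.0035.

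Both KO libraries lay above both het libraries for 4 of the 8 processing genes, 3 of the 21 cGMP genes, 6 of the 18 regulators and 1 of the 8 neighbours in endothelial-like cells, and below them for 1, 4, 3 and 2, against 14.2% and 14.6% of all genes. In cardiomyocyte-like cells the counts above were 1 of 8, 2 of 20, 1 of 18 and 1 of 9, and those below 2, 4, 4 and 0, against 14.1% and 14% of all genes. The genes given next are among those of lowest p in each list, and none passed the test. Ece1, an enzyme that cleaves big endothelin and other peptides, was at 593 and 629 CPM in KO 1 and KO 2 endothelial-like cells, against 486 and 524 CPM in het 1 and het 2 (0.27 ± 0.17). Dpp4, a peptidase of the cell surface, was at 56.6 and 46.2 CPM in KO 1 and KO 2 there, against 81.1 and 69.5 CPM in het 1 and het 2 (-0.55 ± 0.16). Both genes had their KO libraries on 1 side of the het libraries, with an edgeR adjusted p of 1. Gucy1a1, a subunit of the soluble guanylyl cyclase, was at 18.3 and 14.4 CPM in KO 1 and KO 2, against 32.3 and 23.5 CPM in het 1 and het 2 (-0.77 ± 0.21), and Pde1a, a cyclic nucleotide phosphodiesterase, at 3.06 and 3.13 CPM in KO 1 and KO 2, against 9.30 and 5.49 CPM in het 1 and het 2 (-1.24 ± 0.31). Hey1, a repressor downstream of Notch, was at 25.2 and 29.4 CPM in KO 1 and KO 2, against 10.7 and 13.2 CPM in het 1 and het 2 (1.18 ± 0.17; edgeR adjusted p = 0.870). In cardiomyocyte-like cells Rgs2, a regulator of G protein signalling that cGMP-dependent kinase acts on, was at 13.8 and 10.2 CPM in KO 1 and KO 2, against 9.597 and 7.55 CPM in het 1 and het 2 (0.49 ± 0.22).

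The stress and fetal partners of Nppa and Nppb gave different counts in the 2 classes. Of 9 genes, 9 were tested in cardiomyocyte-like cells, with 5 above 0 and a median of 0.07, and 8 in endothelial-like cells, with 1 above 0 and a median of -1.58. In endothelial-like cells both KO libraries lay above both het libraries for 0 of the 8 and below for 4. The shares over all genes there were 14.2% and 14.6%. In cardiomyocyte-like cells they lay above for 1 and below for 1 of the 9, against 14.1% and 14% of all genes. Ankrd1, a muscle ankyrin repeat gene, was at 19.04 and 12.46 CPM in KO 1 and KO 2 endothelial-like cells, against 65.4 and 26.4 CPM in het 1 and het 2, and Actn2, a sarcomere gene that is also 1 of the 14 cardiomyocyte markers, at 9.87 and 5.39 CPM in KO 1 and KO 2, against 39.7 and 15.4 CPM in het 1 and het 2. Both were highest in het 1, where the cardiomyocyte markers, Actn2 among them, took their largest share of endothelial-like UMIs, so the level of Actn2 is part of that share. The part of muscle RNA in these values was not tested.

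Across 26 clusters the genes whose mean log2(CPM + 1) followed each member most closely were ranked by Pearson's r among 10690 genes. The clusters share libraries and depth, so r is a description. Myh7, a ventricular myosin gene, came first for Nppa (0.953), ahead of Actn2 and Trim55, and Lmod3, a thin filament gene of muscle, came first for Nppb (0.965), ahead of Cited1 and Klhl31. For Nppc the first was 1810009J06Rik (0.956), and Wnt9b, a ligand of the valve endocardium, was the fifth (0.921). Npr1 was followed most closely by Rab11a (0.909), with Nos3, the endothelial nitric oxide synthase, the fourth (0.872). Tek, an angiopoietin receptor of endothelium, came first for Npr3 (0.926), ahead of Adgrg6 and Ece1. For Npr2 the first was Gm37018 (0.969), a ranking led by an unnamed low-UMI cluster that held 4 and 1 Npr2 UMIs in KO 1 and KO 2 and 0 and 4 in het 1 and het 2.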

How the data were processed

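Single-cell RNA was captured with a 10x Genomics 3′ method from ventricles of 2 KO and 2 het libraries. Of the kit, 3′ v2 is named in a protocol of the labels and Chromium Next GEM elsewhere in them. The deposited values were raw UMI counts per gene and barcode, made with Cell Ranger 6.0.1 per the file headers, and mm10, Cell Ranger and Seurat are named in the submitters' processing notes. Whether counting used strand, and the annotation, are not given in the sources used here. Nppa, Npr1, Npr2 and Npr3 overlap antisense genes in GENCODE M21, with which they may share reads.

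The matrices held 171252072 and 137890971 UMIs in KO 1 and KO 2 and 156491597 and 190207638 in het 1 and het 2. Cells with at least 500 genes and under 20% mitochondrial UMIs were kept. Scrublet doublets (scanpy 1.11.5, expected rate 0.1) were removed, 608 and 93 in KO 1 and KO 2 and 412 and 242 in het 1 and het 2; its automatic threshold failed in KO 2 and het 1, where the median of the others, 0.323, was used. The members were left out of the genes used for clustering (2000 variable genes, 30 components, 20 neighbours, Leiden resolution 1), which gave 40 clusters. Of these, 22 were named from fixed markers and called X-like, and 18 were not named. A cluster was kept out of a class where cardiomyocyte markers took 1% or more of its UMIs, and a cardiomyocyte-like cluster needed 5%.

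UMIs were summed per library and class. Plain levels are CPM of the class total. For tests, genes passing filterByExpr (10 counts, 15 in total) entered the quasi-likelihood test of edgeR 4.0.16 with TMM factors (R 4.3.3), over all genes of a class, with Benjamini-Hochberg adjustment at 0.05; the levels beside a test are TMM-scaled CPM. Shares of cells were taken after thinning each cell to 2000 UMIs, leaving out shallower cells. Intervals are 95% Wilson intervals, and a count of 0 allows 3 counts; both cover counting error only. In simulated counts with 200 changed genes, the cardiomyocyte-like comparison recovered 35% of 2-fold and 83% of 4-fold changes. The endothelial-like comparison recovered 44.5% and 86%. Whether simulated libraries varied as much as the real ones, with their different cluster mixes, was not tested. These shares may therefore be too high for the real data, and the lack of calls is not evidence against such changes.

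The members and lists were chosen with earlier results of these data known. Named genes were the 6 members, up to 3 genes of lowest p per list and class, and the 5 genes most like each member, of which the text gives a part. Promoter sequences came from RefSeq (GRCm38.p6), where all 6 members had an entry. Alternatives were DESeq2 1.42.0, limma-voom 3.58.1, no TMM factor, no filter, a replicate block, totals without globin genes, leaving out each library, other cell filters, resolution 2, the members among the clustering genes and doublets kept. Protein sequences were not used here.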

Additional observations from a re-analysis of the deposited data

How the results depend on the processing

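The number of genes called in a class, 0 with all libraries in every class, changed with the fit. Without the filter on low counts the calls were 147 in cardiomyocyte-like, 318 in endothelial-like, 40 in mesenchymal-like, 20 in epicardial-like, 773 in erythroid-like and 91 in macrophage-like cells, 280 in endocardial and 251 in vascular clusters and 19 in the trabecular-type cluster. DESeq2 called 43 genes in endothelial-like, 1 in mesenchymal-like, 3 in epicardial-like, 418 in erythroid-like and 3 in macrophage-like cells, 37 in endocardial clusters and 1 in vascular clusters, and without the TMM factor 4723 were called in erythroid-like cells. Leaving out 1 library gave 0 to 284 calls in cardiomyocyte-like, 3 to 327 in endothelial-like, 0 to 18 in mesenchymal-like, 15 to 95 in epicardial-like, 6 to 3413 in erythroid-like and 5 to 100 in macrophage-like cells, 53 to 267 in endocardial and 1 to 301 in vascular clusters, 1 to 27 in the trabecular-type cluster and 0 to 156 for the difference between classes; a lone library is then assumed to vary like the pair of the other group.

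Of 280 alternative values of 23 member differences, 241 kept their direction and side of the threshold, 20 passed the threshold and 19 turned sign. Turned were Npr3 in cardiomyocyte-like cells without the clusters led by het 1 (0.032; chosen after seeing the data), Nppa in the trabecular-type cluster at resolution 2 (0.51) and Npr3 in epicardial-like cells with limma-voom (-0.047). Among fits without 1 library the ranges that crossed 0 were -1.48 to 0.50 for Npr3 in cardiomyocyte-like cells, -1.04 to 0.17 for Nppa in the trabecular-type cluster, -0.018 to 0.19 for Npr1 in endothelial-like cells, -0.47 to 1.22 for Npr3 and -0.020 to 1.78 for Nppc in cluster 13, -0.35 to 0.43 for Npr2 and -0.073 to 0.32 for Npr3 in mesenchymal-like cells, -0.88 to 0.78 for Npr3 in epicardial-like cells, -0.082 to 0.31 for Npr1 in macrophage-like cells, and -0.67 to 2.72 for Nppc and -0.13 to 0.38 for Npr1 in the difference between classes. The cause was not tested.

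The labels do not say what a shared replicate number means, and with 2 pairs the numbers were not taken to pair the libraries; deviations of KO 1 and het 1 from their group means correlated at 0.53 to 0.61 across genes. With the replicate number as a block, 288 genes were called in cardiomyocyte-like, 430 in endothelial-like, 49 in mesenchymal-like, 41 in epicardial-like, 3134 in erythroid-like and 10 in macrophage-like cells, 533 in endocardial and 420 in vascular clusters and 14 in the trabecular-type cluster. Under the block Npr3 in epicardial-like cells was -0.027, and Nppb in cardiomyocyte-like cells (1.12) and in the trabecular-type cluster (2.06), Npr3 in endothelial-like (0.75) and cardiomyocyte-like (-0.63) cells and Nppa in endothelial-like cells (-1.11) passed the threshold.

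Shares of cells with a UMI were also taken without thinning. The means over libraries were then 48.4% for Nppa and 24.5% for Nppb in cardiomyocyte-like, 2.62% for Nppc, 30.2% for Npr1 and 57.6% for Npr3 in endothelial-like and 14.7% for Npr2 in mesenchymal-like cells.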
